A study of Mus musculus with 24 samples.

Results

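The small leucine-rich proteoglycans are secreted proteins of the extracellular matrix, built from a curved stack of leucine-rich repeats that carries glycosaminoglycan chains in most members. The 8 genes examined here are Dcn, Bgn, Aspn, Lum, Fmod, Prelp, Omd and Ogn, which were chosen by name and followed by Ensembl identifier among the 39017 gene identifiers counted. All 8 passed the filter of a mean of at least 5 counts and were among the 14361 genes tested.

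Expression was measured by RNA-Seq in the mouse embryonic fibroblast line NIH 3T3, with 24 libraries in 8 groups of 3. Every group carried a retroviral vector with neomycin resistance and was a pooled, G418-selected population rather than a clone. The groups were empty vector (EV), empty vector labelled sub-confluent (EVsub), the full-length transcription factors CAMTA1 and TFE3, the Hippo-insensitive co-activators TAZ4SA and YAP5SA, in which the serines that LATS kinases phosphorylate are replaced by alanine, and the gene fusions TAZ-CAMTA1 and YAP-TFE3 of epithelioid hemangioendothelioma. The CAMTA1 lines were collected at sub-confluence and are therefore set against EVsub; the other groups were collected after 48 h at confluence. The study names separate transductions for the replicates of a protein, so that p-values measure the spread between those populations. All proteins were produced from a viral promoter in one cell line, and no protein of a member was measured in these libraries.

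Decorin (Dcn), biglycan (Bgn) and asporin (Aspn) form the first class of the family. Decorin and biglycan bear chondroitin or dermatan sulfate, bind fibrillar collagen and bind TGF-β, while asporin has a run of aspartate residues at its amino end and lacks the usual site for the chain. Lumican (Lum), fibromodulin (Fmod), prolargin (Prelp) and osteomodulin (Omd) form the second class, whose members bind collagen and, in several cases, bear keratan sulfate or sulfated tyrosines, and osteoglycin (Ogn, or mimecan) belongs to the third class. In connective tissue these proteins regulate the width and spacing of collagen fibrils, and Dcn and Lum are widely used as markers of fibroblasts.

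Library totals ran from 16471181 to 30132586 counts with a median of 22298975, and levels are given as CPM, counts relative to library size after TMM scaling, a correction for differences in RNA composition. Of the 10 fibroblast markers, none was at 0 in all libraries of a group, and their summed level was between 20416 and 54095 CPM in the 24 libraries, with no member among the list. Single markers differed, with Fap at only 0.211 to 0.382 CPM in EV. In YAP5SA, Pdgfra was lower than in EV (156 to 291 against 1176 to 1212 CPM) and Thy1 higher (180 to 203 against 33.3 to 40.7 CPM). Summed markers of epithelial cells reached at most 1.15 CPM, those of adipocytes 10.3 CPM and those of endothelial cells 16.5 CPM. Sox9 made up most of the osteoblast and chondrocyte list, whose sum ran from 3.23 CPM in YAP5SA to 147 CPM in EV, and Ibsp and Acan were at 0 in every library. The immune markers summed to 3.10 to 4.38 CPM in EV, 16.4 to 67.5 CPM in TAZ4SA and 83.6 to 132 CPM in YAP5SA, mostly as Cd68 and Csf1r, with Adgre1 at 0 in every library and Ptprc at no more than 0.176 CPM. The part of these markers in the member changes was not tested. Mouse Camta1 counts rose in CAMTA1 against EVsub (log2 fold change 1.07 ± 0.18 SE, adjusted p = 0.00190), whereas Tfe3 did not pass the test in TFE3 against EV (-0.30 ± 0.14, adjusted p = 0.308). Wwtr1, the gene of TAZ, rose in TAZ4SA against EV (0.28 ± 0.090, adjusted p = 0.0113), and Yap1 fell in YAP5SA against EV (-0.86 ± 0.084, adjusted p = 8.13e-09). In TAZ-CAMTA1 against EV, Camta1 (-0.062 ± 0.18, adjusted p = 0.850) and Wwtr1 (0.17 ± 0.089, 0.190) did not pass. In YAP-TFE3 against EV, Yap1 (-0.19 ± 0.083, adjusted p = 0.136) and Tfe3 (-0.16 ± 0.14, 0.510) did not pass. The counts of these mouse genes did not show the introduced gene in the libraries labelled TFE3, YAP5SA, TAZ-CAMTA1 and YAP-TFE3. Tfe3, which was not introduced there, rose against EV in TAZ4SA (0.58 ± 0.14, adjusted p = 0.00103) and YAP5SA (0.87 ± 0.14, 7.41e-06). The smaller Wwtr1 rise therefore does not by itself show the introduced gene in TAZ4SA. For TAZ4SA and the groups just named the directions rest on the labels, beside the study's Flag western blots of the proteins in NIH 3T3 cells.

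Length-scaled levels differed widely between members in EV. Bgn and Dcn were the most abundant, with 466 and 417 CPM per kb of exon, followed by Ogn at 176, Aspn at 79.2, Lum at 22.9, Prelp at 13.6, Fmod at 2.53 and Omd at 0.668 CPM per kb. The annotated exons of Bgn and Dcn exceed their longest transcripts (6099 against 2666 bp for Bgn and 5838 against 4692 bp for Dcn), and scaled by the longest transcript Bgn stood at 1065 and Dcn at 519 CPM per kb in EV. The lowest-expressed gene, Omd, rested on 29 to 41 counts per EV library, while Bgn rested on 54133 to 69849.

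Dcn was highest in EV, both fusions and TFE3. It stood at 2181, 2729 and 2391 CPM in the 3 EV libraries, at 2685, 1935 and 1625 in TAZ-CAMTA1, at 1996, 1229 and 1843 in YAP-TFE3 and at 2029, 2031 and 1987 in TFE3. These 4 groups overlapped from one to the next in order of level. It stood at 359, 527 and 362 CPM in TAZ4SA, at 77.3, 236 and 482 in EVsub, at 43.7, 90.3 and 187 in CAMTA1 and at 38.1, 71.8 and 52.3 in YAP5SA. YAP-TFE3, the lowest of the first set, did not overlap with TAZ4SA, and the last 4 groups again overlapped from one to the next.

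Bgn was the exception among the members. Its 24 libraries lay between 1958 and 4671 CPM, and its group means spanned 1.72-fold, from 2007 ± 34.5 CPM (SD, n = 3) in CAMTA1 to 3444 ± 1090 CPM in TAZ4SA. The other 7 members spanned between 14.1-fold (Prelp) and 66.4-fold (Ogn) from the lowest to the highest group mean. In order of level the only neighbours apart were EV and TAZ-CAMTA1. The highest Bgn values came from single libraries, 4671 CPM in TAZ4SA replicate 2 and 4568 CPM in EVsub replicate 2.

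Aspn stood at 128, 271 and 161 CPM in EV, at 468, 345 and 352 in TAZ-CAMTA1 and at 527, 230 and 185 in YAP-TFE3, with 96.6, 128 and 140 in TFE3. It stood at 41.9, 28.7 and 152 CPM in TAZ4SA, at 21.7, 20.7 and 68.6 in EVsub, at 11.7, 31.8 and 44.9 in CAMTA1 and at 6.73, 10.4 and 8.36 in YAP5SA. TAZ-CAMTA1 lay above every EV library, YAP5SA lay below every other group, and TAZ4SA replicate 3 alone reached the EV range.

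Ogn was highest in both fusions. It stood at 1437, 1417 and 1724 CPM in TAZ-CAMTA1 and at 1959, 1100 and 708 in YAP-TFE3, against 295, 683 and 377 in EV and 321, 446 and 503 in TFE3. It stood at 118, 94.5 and 291 CPM in TAZ4SA, at 327, 81.6 and 451 in EVsub, at 397, 575 and 555 in CAMTA1 and at 18.5, 28.9 and 21.5 in YAP5SA. Both fusions lay above all libraries of the other 6 groups, and YAP5SA lay below them.

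Lum stood at 46.6, 70.6 and 51.0 CPM in EV, at 65.4, 48.3 and 43.2 in TAZ-CAMTA1, at 53.1, 39.7 and 44.0 in YAP-TFE3, at 38.8, 32.9 and 33.4 in TFE3 and at 28.6, 26.3 and 17.7 in TAZ4SA. It stood at 2.10, 4.02 and 3.80 CPM in YAP5SA, at 1.28, 2.74 and 9.0 in EVsub and at 0.505, 1.90 and 3.18 in CAMTA1. The 3 groups with the lowest Lum overlapped with each other, EV and both fusions overlapped as well, and TFE3 and TAZ4SA each lay apart from their neighbours in the order.

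Prelp and Fmod had an order of their own, in which TAZ4SA joined the fusions. Prelp stood at 101, 146 and 144 CPM in TAZ4SA and at 175, 148 and 165 in TAZ-CAMTA1, against 36.5, 68.8 and 41.8 in EV and 12.1, 14.8 and 7.86 in YAP5SA. The other groups held Prelp at 160, 67.8 and 81.9 CPM in YAP-TFE3, at 37.5, 38.5 and 35.3 in TFE3, at 8.70, 17.0 and 30.1 in EVsub and at 21.9, 23.7 and 32.5 in CAMTA1. TAZ-CAMTA1, the highest, lay just above TAZ4SA, and YAP5SA overlapped with EVsub alone.
Fmod stood at 11.9, 19.0 and 13.9 CPM in TAZ4SA and at 30.9, 20.1 and 16.2 in TAZ-CAMTA1, against 7.73, 10.7 and 6.59 in EV and 3.23, 3.34 and 1.77 in YAP5SA. The other groups held Fmod at 35.8, 14.7 and 11.8 CPM in YAP-TFE3, at 7.69, 6.75 and 5.68 in TFE3, at 0.865, 5.66 and 6.76 in EVsub and at 0.252, 0.904 and 1.42 in CAMTA1. In both genes TAZ4SA and TAZ-CAMTA1 lay above all EV libraries.

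Omd, the least abundant member, was highest in CAMTA1. It stood at 3.75, 4.62 and 4.33 CPM in CAMTA1, at 3.15, 3.77 and 2.87 in TAZ-CAMTA1, at 1.27, 1.96 and 1.28 in EV and at 0.103, 0.147 and 0.317 in YAP5SA. It stood at 3.91, 2.48 and 1.74 CPM in YAP-TFE3, at 1.48, 1.14 and 1.88 in TFE3, at 2.51, 0.712 and 2.16 in EVsub and at 0.298, 0.375 and 1.36 in TAZ4SA. Every pair of groups next to each other in this order overlapped. The YAP5SA values were 2, 3 and 5 counts, so that any fold against YAP5SA rests on few reads.

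**Figure D1:**
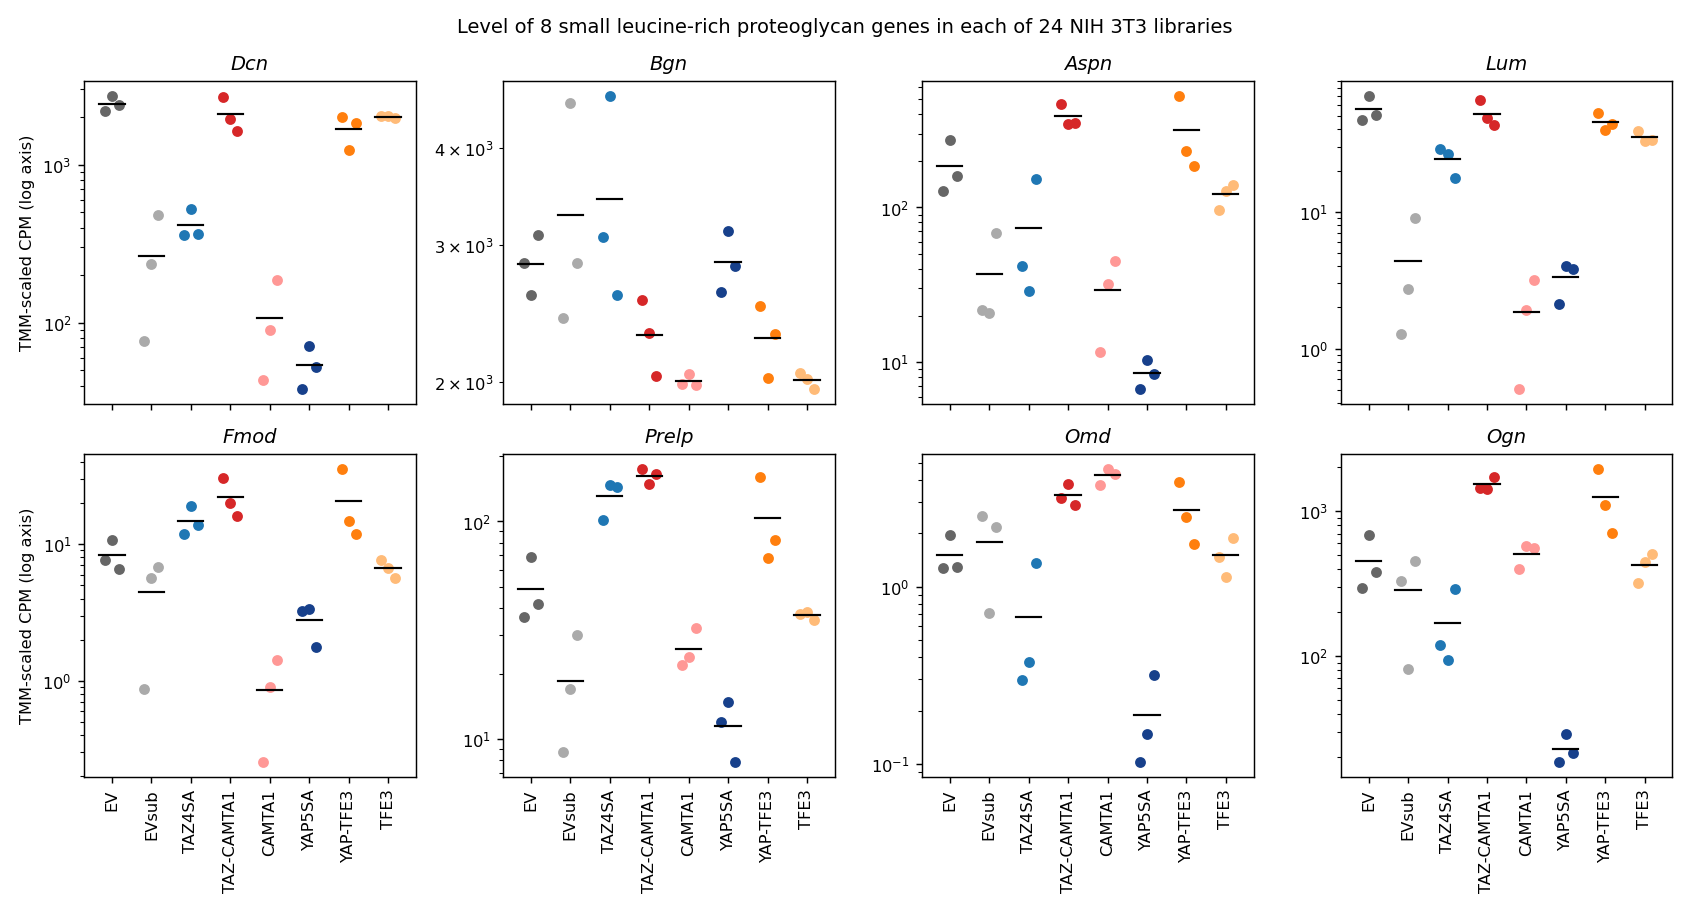
Level of each member in every library, as TMM-scaled CPM on a log axis with a separate range per gene; points are libraries and bars are means of 3. Dcn, Lum, Aspn and Ogn fall to 54.1, 3.31, 8.50 and 23.0 CPM on average in YAP5SA, while Bgn stays between 1958 and 4671 CPM in all 24 libraries.

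The genes lie in 4 places of the mm10 genome, and all are protein-coding. Aspn (chr13:49544443-49567565), Omd (chr13:49582462-49592822) and Ogn (chr13:49608046-49624501) stand in that order on the plus strand within 80059 bp. Dcn (chr10:97479609-97518143) and Lum (chr10:97565128-97572703) are neighbours on the plus strand of chromosome 10, Prelp (chr1:133910304-133921414, minus strand) and Fmod (chr1:134037254-134048277, plus strand) are neighbours on chromosome 1, and Bgn (chrX:73483602-73495933, plus strand) stands alone on the X chromosome. Cenpp, a centromere protein gene, spans the chromosome 13 cluster on the opposite strand and shares 7 exonic bases with Aspn and 0 with Omd and Ogn. Its level was between 1.65 and 9.47 CPM. Prelp shares 350 exonic bases with the antisense transcript Gm15851, which reached at most 0.0466 CPM.

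The RefSeq promoter table (GRCm38.p6) held 6 of the 8 members, Bgn, Aspn, Fmod, Prelp, Omd and Ogn. Each sequence comprises the 250 bases before the start in RefSeq, 5′ to 3′ on the strand of the gene, and distances refer to that start. It can differ from the gene position given above. The Ogn window ends at 49608014, short of the gene start at 49608046. The Prelp window reaches 133921402, inside the gene, which was given above as ending at 133921414. They were searched on both strands for GGAATG, the core bound by TEAD factors, the DNA-binding partners of YAP and TAZ, for CACGTG, an E-box of the kind bound by TFE3, for TGANTCA, bound by AP-1, and for TATAAA. The 4 members below are shown because Ogn and Aspn had the widest span of group means, Prelp rose in TAZ4SA, and Bgn had the narrowest span; capitals mark the matches.
Ogn (chr13:49607765-49608014, plus strand): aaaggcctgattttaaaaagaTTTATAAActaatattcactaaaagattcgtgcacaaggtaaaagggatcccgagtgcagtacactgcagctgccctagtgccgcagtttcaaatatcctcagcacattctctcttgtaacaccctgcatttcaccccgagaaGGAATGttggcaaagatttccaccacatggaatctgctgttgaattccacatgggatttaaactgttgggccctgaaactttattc
Aspn (chr13:49544193-49544442, plus strand): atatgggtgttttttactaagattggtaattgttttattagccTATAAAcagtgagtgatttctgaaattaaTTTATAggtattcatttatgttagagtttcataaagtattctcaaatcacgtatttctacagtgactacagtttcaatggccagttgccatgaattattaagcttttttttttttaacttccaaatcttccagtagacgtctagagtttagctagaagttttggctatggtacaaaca
Prelp (chr1:133921402-133921651, minus strand): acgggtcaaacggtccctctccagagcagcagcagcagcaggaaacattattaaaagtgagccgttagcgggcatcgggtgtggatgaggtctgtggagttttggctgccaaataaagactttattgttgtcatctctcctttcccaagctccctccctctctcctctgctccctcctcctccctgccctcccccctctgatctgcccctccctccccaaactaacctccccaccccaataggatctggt
Bgn (chrX:73483351-73483600, plus strand): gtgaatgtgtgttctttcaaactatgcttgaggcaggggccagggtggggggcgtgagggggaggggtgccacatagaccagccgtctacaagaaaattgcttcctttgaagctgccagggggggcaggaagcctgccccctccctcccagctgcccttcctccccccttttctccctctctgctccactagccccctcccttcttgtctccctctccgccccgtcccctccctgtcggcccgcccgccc
GGAATG was found in 1 of the 6 promoters, in Ogn from 86 to 81 bases before the start, while 12.6% of 32851 promoters of that length hold it. CACGTG and TGANTCA were found in none of the 6, against 6.02% and 6.75% of all promoters. TATAAA or its reverse complement was found 2 times each in Ogn, where the matches overlap, and in Aspn, against 12.4% of all promoters. A match describes the letters of the window and not a bound site.

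YAP5SA lowered the most members. Against EV, 7 of the 8 members were called at an adjusted p under 0.05 (edgeR quasi-likelihood test with Benjamini-Hochberg adjustment over 14361 genes), and all 7 were lower. Calls were frequent over all genes in this comparison, at 71.2% of those tested, with 5208 higher and 5012 lower, so that the count of members is read against that share. The median log2 fold change was -3.55 over the 8 members and 0.014 over all genes tested.
Dcn, which binds collagen and TGF-β, fell by 5.49 on the log2 scale (SE 0.54, adjusted p = 9.72e-09), a 45.0-fold decrease from 2433 ± 277 to 54.1 ± 16.9 CPM. Aspn followed at -4.45 ± 0.64 (adjusted p = 1.97e-06), Ogn at -4.29 ± 0.53 (2.88e-07) and Lum at -4.08 ± 0.49 (1.48e-07). These 4 genes were lower than every EV library in all 3 YAP5SA libraries. Groups did not overlap for 7 of the 8 members and for 75.5% of all tested genes. Omd fell by 3.01 on the log2 scale (SE 0.62), Prelp by 2.07 (SE 0.36) and Fmod by 1.57 (SE 0.52, adjusted p = 0.0107). Bgn had a log2 fold change of 0.0061 ± 0.20 (adjusted p = 0.980), and its sign varied between fits. Leaving out any single library of the comparison kept the count at 7.

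TAZ4SA moved members in both directions. Of the 8, 5 were called against EV, 1 higher and 4 lower, where 57.5% of all tested genes were called. Dcn changed most, at -2.55 ± 0.47 (adjusted p = 9.43e-05), a 5.85-fold decrease to 416 ± 96.5 CPM with no overlap between the groups. Ogn (-1.43 ± 0.47, adjusted p = 0.0130), Lum (-1.21 ± 0.41, 0.0148) and Aspn (-1.32 ± 0.54, 0.0424) fell less. Prelp, a collagen-binding protein that also binds heparan sulfate, rose by 1.41 ± 0.34 (adjusted p = 0.00111), 2.66-fold, and every TAZ4SA library lay above every EV library. Groups did not overlap for 5 of the 8 members and for 56.0% of all tested genes. Fmod (0.83 ± 0.47, adjusted p = 0.138), Omd (-1.05 ± 0.48, 0.0682) and Bgn (0.28 ± 0.20, 0.240) were not called. The count was 2 without EV replicate 2, the highest EV library for 7 of the 8 members, and 3 without TAZ4SA replicate 1 or replicate 2. The Aspn call was also lost without EV replicate 3, with the 2 groups fitted alone and in DESeq2, and Lum without TAZ4SA replicate 3. Dcn and Prelp were called in all fits run.

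Between the 2 hyperactive co-activators, 7 of the 8 members were higher in TAZ4SA than in YAP5SA at an adjusted p under 0.05, where 42.4% of all genes were called. The largest differences were Prelp at 3.49 ± 0.37 (adjusted p = 5.45e-07), 11.2-fold, and Aspn at 3.13 ± 0.61 (0.000350). Dcn differed by 2.94 ± 0.48, Lum by 2.87 ± 0.48, Ogn by 2.87 ± 0.50 and Fmod by 2.40 ± 0.52. Omd (1.96 ± 0.69, adjusted p = 0.0260) overlapped between the groups and was lost with the 2 groups fitted alone and without TAZ4SA replicate 3 or YAP5SA replicate 1 or replicate 2. Bgn was not called (0.27 ± 0.20, adjusted p = 0.282). The immune marker sum given above also lay higher in YAP5SA than in TAZ4SA.

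TAZ-CAMTA1 raised Ogn, Prelp and Fmod. Of the 8 members 3 were called against EV, all higher, where 21.5% of all tested genes were called. Ogn rose 3.38-fold (log2 fold change 1.76 ± 0.47, adjusted p = 0.00999) to 1526 ± 172 CPM, Prelp 3.32-fold (1.73 ± 0.34, 0.000736) to 163 ± 13.6 CPM and Fmod 2.68-fold (1.42 ± 0.47, 0.0326) to 22.4 ± 7.58 CPM. None of the 3 overlapped with EV. Aspn (1.06 ± 0.54, adjusted p = 0.170) and Omd (1.12 ± 0.41, 0.0540) had no overlap either and did not pass. Groups did not overlap for 6 of the 8 members and for 45.5% of all tested genes. Bgn (-0.31 ± 0.20, adjusted p = 0.297) was lower in each library and did not pass, and Dcn (-0.23 ± 0.45) and Lum (-0.10 ± 0.40) overlapped. Prelp alone was called in every alternative fit. Fmod and Ogn were lost without EV replicate 1 or EV replicate 3, which left 1 call in each case. Fmod was lost in DESeq2 and without TAZ-CAMTA1 replicate 1 or replicate 2 too, and with the 2 groups fitted alone the count was 5, Aspn and Omd included.

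YAP-TFE3 raised Ogn and Prelp. Against EV 2 members were called, both higher, where 15.3% of all tested genes were called. Ogn rose 2.78-fold (1.48 ± 0.47, adjusted p = 0.0350) and Prelp 2.11-fold (1.07 ± 0.33, 0.0305), and Fmod was at 1.31 ± 0.47 (0.0627). Ogn lay above EV in all 3 libraries, and Prelp overlapped, with YAP-TFE3 replicate 2 just under the highest EV library. Groups did not overlap for 4 of the 8 members and for 36.6% of all tested genes. YAP-TFE3 replicate 1 held the highest value of its group for all 8 members, as for Fmod above. Without that library, and likewise without EV replicate 1 or EV replicate 3, the count was 0, and without YAP-TFE3 replicate 2 the count was 1. Dcn (-0.53 ± 0.45, adjusted p = 0.501) and Lum (-0.30 ± 0.40, 0.695) were not called.

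The direct comparison of the 2 fusions called no member, where 11.6% of all tested genes were called. The log2 differences, TAZ-CAMTA1 over YAP-TFE3, ran from 0.012 (Bgn) to 0.66 (Prelp, SE 0.33, adjusted p = 0.217), and 0 members had an unadjusted p under 0.05. DESeq2 also called 0. The groups overlapped for all 8 members, while 37.1% of all tested genes had no overlap. The standard errors of the members were 0.20 to 0.53, and the missed threshold does not show equal levels.

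Set against its co-activator, each fusion held more of most members. TAZ-CAMTA1 was higher than TAZ4SA for Ogn (3.18 ± 0.50, adjusted p = 1.87e-05, 9.08-fold), Aspn (2.38 ± 0.56, 0.00118), Dcn (2.32 ± 0.47, 0.000281), Omd (2.17 ± 0.46, 0.000426) and Lum (1.11 ± 0.41, 0.0259), and lower for Bgn (-0.58 ± 0.20, 0.0172). That made 6 calls of 8, where 54.7% of all genes were called. Fmod (0.59 ± 0.46, adjusted p = 0.283) and Prelp (0.32 ± 0.33, 0.429), the 2 neighbours on chromosome 1, were not called. The Bgn call was lost without TAZ4SA replicate 2, the library with the highest Bgn, or without TAZ-CAMTA1 replicate 3, and the Lum call without TAZ4SA replicate 3 or TAZ-CAMTA1 replicate 1. The Bgn call was also lost with the 2 groups fitted alone, and the Lum call in DESeq2.
YAP-TFE3 was higher than YAP5SA for 7 of 8 members, where 70.9% of all genes were called. Ogn differed by 5.77 ± 0.57 (adjusted p = 1.11e-08), 54.6-fold, Aspn by 5.20 ± 0.66 (3.51e-07), 36.9-fold, and Dcn by 4.96 ± 0.53 (3.37e-08), 31.2-fold. Omd was at 3.85 ± 0.58, Lum at 3.79 ± 0.48, Prelp at 3.15 ± 0.37 and Fmod at 2.88 ± 0.52. Bgn was at -0.32 ± 0.20 (adjusted p = 0.149). Leaving out any single library of the comparison kept 7 calls.

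**Figure D2:**
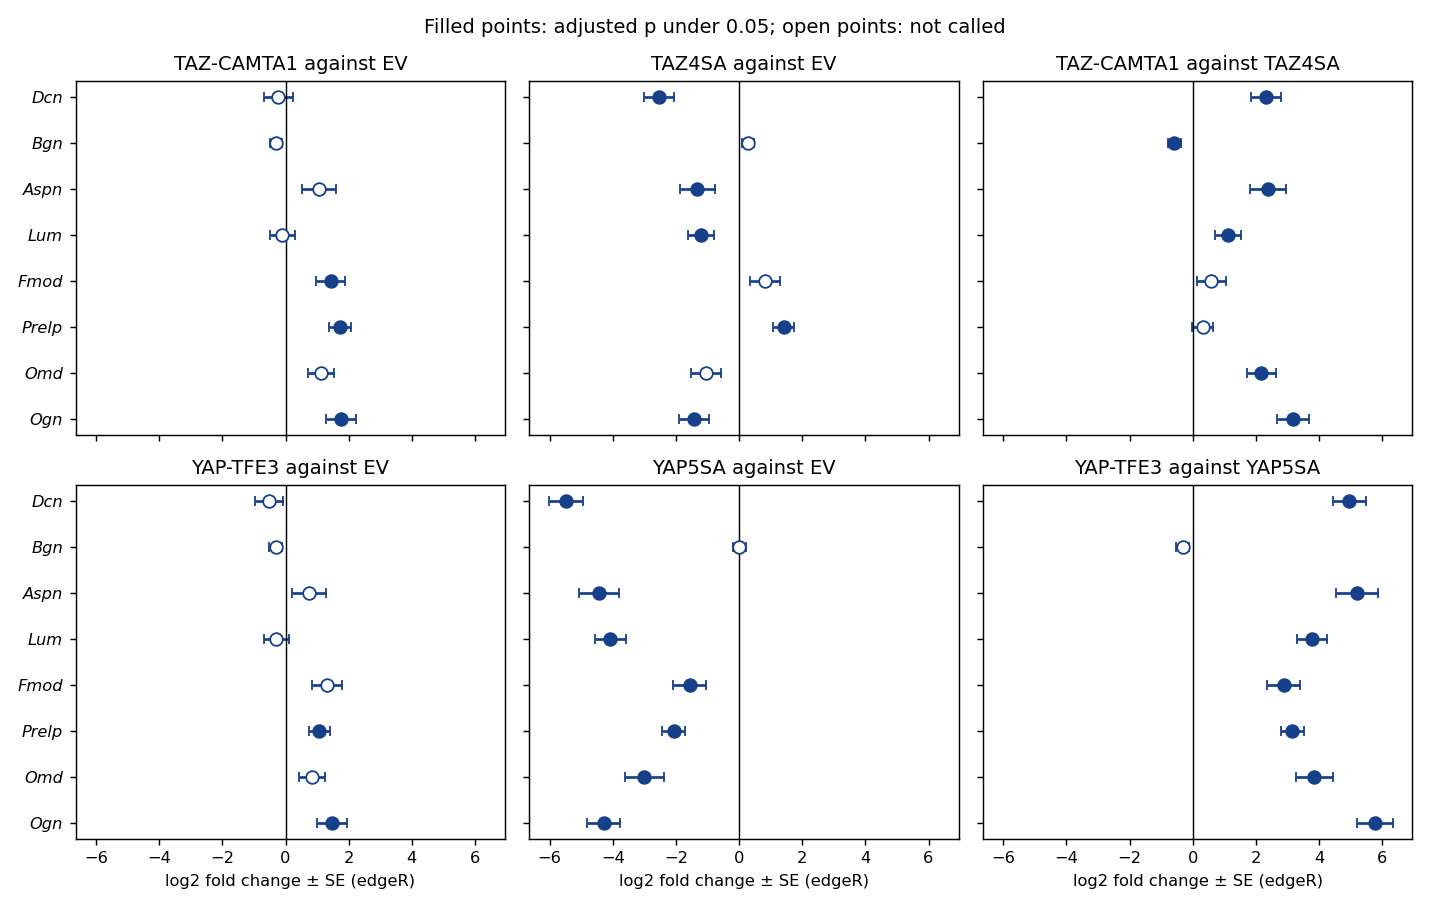
log2 fold change ± SE (edgeR) of each member in 6 comparisons, with 3 libraries per group; filled points passed an adjusted p of 0.05. The YAP5SA panel lies at -1.57 to -5.49 except for Bgn, and the panels of the fusions against EV hold 3 and 2 filled points, all to the right of 0.

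In TFE3 against EV no member was called in edgeR, where 3.38% of all tested genes were, 1 member (Bgn, -0.50 ± 0.20) had an unadjusted p under 0.05, and DESeq2 called 0. Fitted with EV alone, Bgn and Lum were called. Lum was at -0.68 ± 0.40 and Aspn at -0.61 ± 0.54. Dcn, Bgn and Lum did not overlap between the groups, nor did 31.0% of all tested genes.
In CAMTA1 against EVsub only Fmod was called, at -2.35 ± 0.59 (adjusted p = 0.0364), where 2.18% of all tested genes were called, and 5 members had an unadjusted p under 0.05. Dcn was at -1.31 ± 0.46 (adjusted p = 0.134) and Lum at -1.19 ± 0.51 (0.222), both overlapping. Fmod stood at 0.252, 0.904 and 1.42 CPM against 0.865, 5.66 and 6.76, so that EVsub replicate 1 lay within the CAMTA1 range. Bgn (-0.71 ± 0.20, adjusted p = 0.0652) and Omd (1.26 ± 0.40, 0.0978) did not overlap between the groups and did not pass. Of all tested genes, 23.8% did not overlap. Without EVsub replicate 1 there were 5 calls (Dcn, Bgn, Lum, Fmod and Omd), without CAMTA1 replicate 3 there were 2, and without any other library of the comparison there were 0.

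The sub-confluent empty vector held less of several members than the confluent one. EVsub against EV called 4 of 8 members, all lower, where 22.1% of all tested genes were called. Lum fell by 3.69 on the log2 scale (SE 0.46, adjusted p = 1.52e-05), 12.9-fold, and Dcn by 3.20 (SE 0.49, 9.04e-05), 9.19-fold. Aspn was at -2.33 ± 0.56 (adjusted p = 0.00486) and Prelp at -1.40 ± 0.34 (0.00560), while Fmod (-0.90 ± 0.49, 0.203), Ogn (-0.66 ± 0.46, 0.342), Omd (0.24 ± 0.42, 0.746) and Bgn (0.21 ± 0.20, 0.504) were not called. The 3 EVsub libraries were far apart, with Dcn 6.23-fold higher in the highest than in the lowest library, and the count stayed at 4 without any 1 of the 6 libraries. With the 2 groups fitted alone the Prelp call was lost (adjusted p = 0.0570).

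The make-up of the 8 transcripts changed accordingly. Scaled by exon length, Dcn was 37.6% of the summed level in TFE3, 35.4% in EV, 22.5% in TAZ-CAMTA1, 22.2% in YAP-TFE3, 9.06% in TAZ4SA, 5.99% in EVsub, 3.13% in CAMTA1 and 1.84% in YAP5SA. Bgn was 40.1% in EV and 94.5% in YAP5SA, and Ogn was 14.6% in EV, 38.2% in TAZ-CAMTA1, 35.3% in YAP-TFE3 and 34.7% in CAMTA1. The order depends on the length used. Scaled by the longest transcript, Bgn exceeded Ogn in TAZ-CAMTA1 (862 against 595 CPM per kb) and in YAP-TFE3 (855 against 489), and exceeded Dcn in TFE3 (754 against 430), each the reverse of the order by all exons. The ratio of Dcn to Bgn CPM within a library, which needs no scaling between libraries, was 0.766 to 1.06 in EV, 0.799 to 1.05 in TAZ-CAMTA1, 0.607 to 0.799 in YAP-TFE3 and 0.988 to 1.01 in TFE3. It was 0.113 to 0.140 in TAZ4SA, 0.0319 to 0.169 in EVsub, 0.0220 to 0.0944 in CAMTA1 and 0.0146 to 0.0229 in YAP5SA. The highest ratio of any of the last 4 groups lay below the lowest of the first 4.

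**Figure D3:**
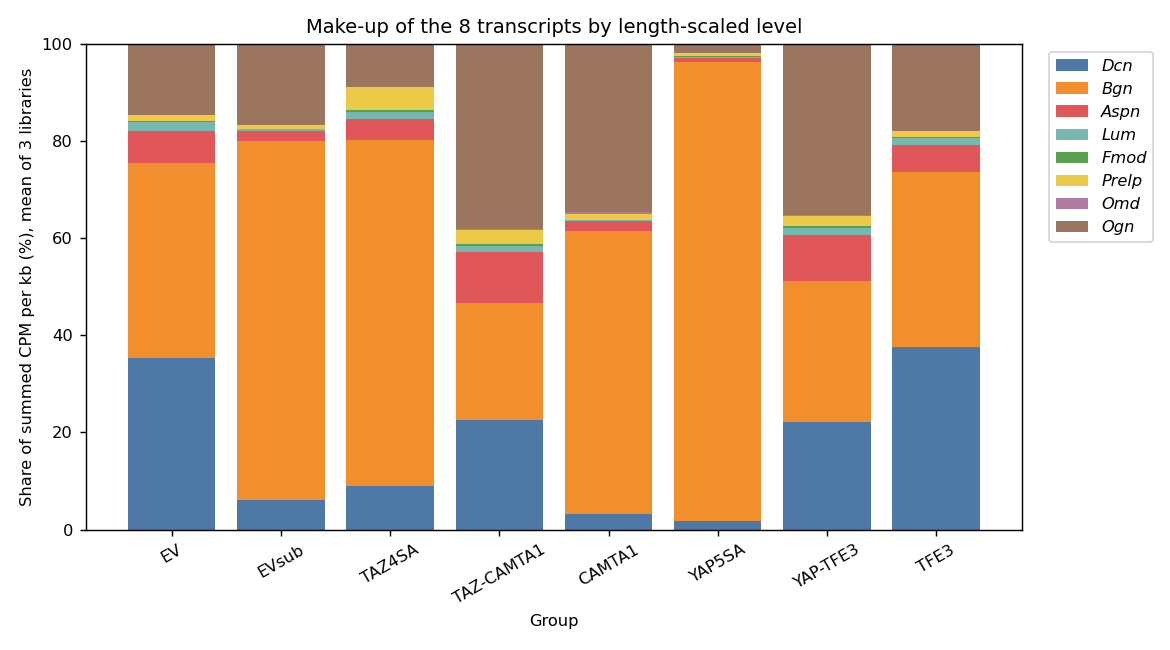
Share of each member in the summed CPM per kb of the 8 genes, as the mean of 3 libraries per group. Bgn takes 94.5% in YAP5SA and 24% in TAZ-CAMTA1, where Ogn takes 38.2%; scaled by the longest transcript instead, Bgn exceeds Ogn in TAZ-CAMTA1 (862 against 595 CPM per kb).

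Members resembled each other to different degrees over the 8 group means of log2 CPM, which share libraries and scaling and are given as a description. Dcn and Aspn had a Pearson r of 0.95, Dcn and Lum 0.94, Omd and Ogn 0.91, Lum and Fmod 0.90 and Fmod and Prelp 0.82. Omd and Fmod had an r of 0.011, and Bgn had negative values with 6 of the 7 others, down to -0.63 with Omd, and 0.16 with Fmod. Among tested genes outside the 8, the most alike in pattern was Fignl2 for Dcn (r = 0.98), Gm11449 for Bgn (0.97), Nfia for Aspn (0.99), Zbtb34 for Lum (0.99), Gpr146 for Fmod (0.96), Rab21 for Prelp (0.97), Sacm1l for Omd (0.99) and Nrip1 for Ogn (0.99). Each of these is the highest of all tested genes outside the 8 members, over only 8 points. Gm11449 had a mean of only 0.227 CPM over all libraries, so that its pattern rests on few reads.

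The neighbours of the chromosome 13 cluster did not all move with it. Ecm2, a related leucine-rich repeat matrix gene beside Aspn, fell in YAP5SA (-2.83 ± 0.40, adjusted p = 1.60e-06) and in TAZ4SA (-1.74 ± 0.35, 0.000226) against EV. It also fell in EVsub (-1.14 ± 0.32, adjusted p = 0.0131) and was at 0.12 ± 0.29 in TAZ-CAMTA1. Nol8, the next gene after Ogn, was called in 1 of the 11 comparisons, YAP5SA against EV, at -0.62 ± 0.25 (0.0341). Cenpp rose in YAP5SA (1.16 ± 0.23, adjusted p = 9.37e-05), where the 3 members inside it fell. It also rose in EVsub (1.47 ± 0.22, adjusted p = 8.55e-05) and TAZ4SA (0.73 ± 0.23, 0.00952), and was at 0.085 ± 0.23 in TAZ-CAMTA1. Beside Lum, Kera (keratocan) was at 0.169 CPM or less in every library and was not tested, and Epyc (epiphycan) fell in YAP5SA (-4.12 ± 0.88, adjusted p = 0.000242) and in EVsub (-3.13 ± 0.70, 0.00273). The mean level of Epyc was 0.400 CPM in EV, 0.0164 in YAP5SA and 0.0434 in EVsub, so that its folds rest on few reads. Optc (opticin), 2304 bp from Prelp, rose in YAP5SA (2.19 ± 0.52, adjusted p = 0.000707), where Prelp fell, and in TAZ4SA (2.25 ± 0.52, 0.000800), where Prelp rose.

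**Figure D4:**
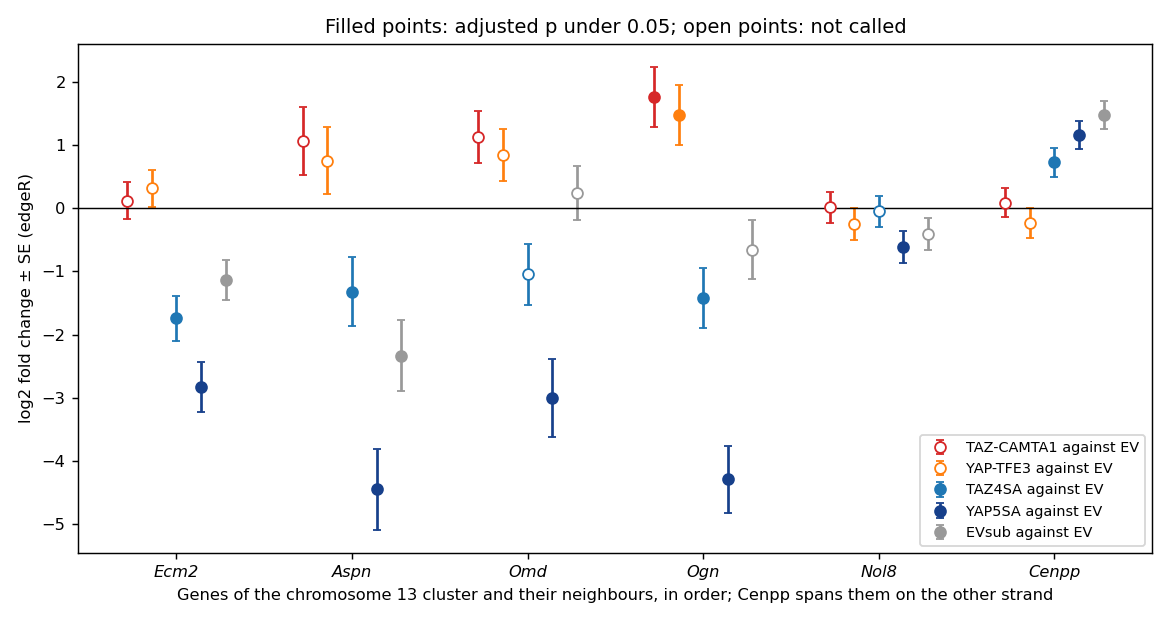
log2 fold change against EV ± SE (edgeR, 3 libraries per group) of Ecm2, Aspn, Omd, Ogn and Nol8 in chromosomal order and of Cenpp, which spans them; filled points passed an adjusted p of 0.05. Aspn, Omd and Ogn lie at -4.45, -3.01 and -4.29 in YAP5SA, while Cenpp lies at 1.16.

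Other genes that make, modify, bind or cut these proteins were followed in fixed lists, with the genes of highest mean CPM named. Their counts are a description, to be read beside the share of all tested genes called in the same comparison. Of 9 tested further members of the family, YAP5SA raised 3 and lowered 4 against EV (71.2% of all genes called), with a median log2 fold change of -1.08, and TAZ-CAMTA1 raised 2 and lowered 0 (21.5%), with a median of 0.12. Podnl1, a podocan-like member, rose in YAP5SA (2.54 ± 0.16, adjusted p = 1.32e-11) from 56.0 to 326 CPM, the opposite direction to the 7 members that fell. It also rose in TAZ4SA (1.09 ± 0.15, adjusted p = 3.46e-06) and EVsub (0.58 ± 0.15), and fell in YAP-TFE3 (-0.68 ± 0.15) and TFE3 (-0.91 ± 0.15).
Of 18 tested enzymes that build the linker and the chondroitin or dermatan sulfate chain, TAZ4SA lowered 11 and raised 1 against EV (median -0.58, with 57.5% of all genes called), YAP5SA lowered 10 and raised 3 (median -0.55, with 71.2%), and TAZ-CAMTA1 lowered 3 and raised 4 (median -0.058, with 21.5%). Dse, the epimerase that turns chondroitin into dermatan sulfate, fell in TAZ4SA (-0.85 ± 0.16, adjusted p = 0.000110) and YAP5SA (-0.86 ± 0.16, 5.71e-05) and rose in TAZ-CAMTA1 (0.51 ± 0.16, 0.0237). Chst11, a chondroitin 4-O-sulfotransferase, fell in YAP5SA (-1.53 ± 0.15), TAZ4SA (-1.20 ± 0.15), EVsub (-1.08 ± 0.15) and TAZ-CAMTA1 (-0.52 ± 0.15).
Of 5 tested keratan sulfate enzymes, YAP5SA raised 1 and lowered 1 against EV, where 71.2% of all genes were called. The sulfotransferase Chst2 fell by 5.70 on the log2 scale (SE 0.45, adjusted p = 3.41e-10) from 4.96 to 0.0928 CPM, and the galactosyltransferase B4galt4 rose by 2.92 ± 0.13 from 7.04 to 53.3 CPM. Of the tyrosine sulfotransferases, Tpst2 rose in YAP5SA (1.33 ± 0.15) and Tpst1 fell (-0.54 ± 0.12).

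Among 14 tested large, cell surface and other proteoglycans, YAP5SA lowered 9 and raised 3 against EV (median -1.57), where 71.2% of all genes were called. Hspg2, which encodes perlecan, rose in YAP5SA (1.90 ± 0.20), TAZ-CAMTA1 (1.42 ± 0.20), TAZ4SA (1.05 ± 0.20), YAP-TFE3 (0.82 ± 0.20) and EVsub (0.63 ± 0.20). Vcan (versican) fell in YAP5SA (-1.89 ± 0.15), TAZ4SA (-1.23 ± 0.15) and TAZ-CAMTA1 (-0.54 ± 0.15).
Of 13 tested binding partners, YAP5SA raised 2 and lowered 4 against EV (71.2% of all genes called), and YAP-TFE3 raised 6 and lowered 2 (15.3%). The fibrillar collagen genes Col1a1 (0.047 ± 0.25, adjusted p = 0.875), Col1a2 (0.088 ± 0.20, 0.704) and Col3a1 (-0.52 ± 0.31, 0.142) were not called in YAP5SA against EV, at group means of 2466 to 8512 CPM.
Of 7 tested proteases that cut these proteins, YAP5SA lowered 3 and raised 2 against EV (71.2% of all genes called), and EVsub lowered 5 (22.1%). Mmp2 fell in YAP5SA (-2.40 ± 0.25, adjusted p = 2.79e-08) and TAZ4SA (-2.11 ± 0.25, 3.97e-07), and Mmp14 in YAP5SA (-1.68 ± 0.16) and TAZ4SA (-1.60 ± 0.16). Against EV, Mmp2 was also called lower in EVsub (-2.24 ± 0.25), YAP-TFE3 (-0.87 ± 0.24) and TAZ-CAMTA1 (-0.71 ± 0.24). The same held for Mmp14, at -1.25 ± 0.16 in EVsub, -0.71 ± 0.16 in YAP-TFE3 and -0.56 ± 0.16 in TAZ-CAMTA1. Adamts5, an aggrecanase, rose in TAZ4SA (0.87 ± 0.21, adjusted p = 0.00148) and YAP-TFE3 (0.80 ± 0.21, 0.0116) and was at -0.060 ± 0.21 in YAP5SA (0.810). The medians of all tested genes lay between -0.026 and 0.053 in the 11 comparisons.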

How the data were processed

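The 24 RNA-Seq libraries fall into 8 groups of 3 by their labels. The labels of YAP-TFE3 replicate 3 conflict, and its title was followed. The values the authors deposited are counts of reads per Ensembl gene identifier, whole and not normalized. By the study's methods, stranded polyadenylated libraries were sequenced as paired ends and processed with bcbio-nextgen and Hisat2 on mm10. The methods also name Salmon and tximport for gene-level counts, but do not say whether the deposited whole-number counts came from them or from the alignments, nor how strand was handled, so that overlapping genes may share reads. Symbols, positions and exon lengths came from GENCODE M21, which named 37693 of 39017 identifiers.

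The 14361 genes whose mean count reached 5 were tested with edgeR 4.0.16 (R 4.3.3), quasi-likelihood, TMM scaling, all libraries in one fit, Benjamini-Hochberg adjustment and a threshold of 0.05. log2 CPM used a prior count of 2. DESeq2 1.42.0 was an alternative, beside other scalings, filters, fits of 2 groups, a replicate block and the omission of each library. The fit was tested on simulated data. Same-numbered replicates were checked for pairing by the correlation of their deviations from group means. In 0 of 11 comparisons did every pair exceed 0.1, so that no pairing was used. CAMTA1 against EVsub had the highest mean correlation, 0.22, with 0.25, -0.0025 and 0.41 for replicates 1, 2 and 3. Each fixed list names at most the 3 tested genes of highest mean CPM, and each member the tested gene outside the 8 of highest correlation; neighbours on the chromosome were also named. The members, lists and comparisons were chosen with earlier results of these data known. Reads carry no molecular identifiers. Tables and figures were made in Python 3.11.15 (numpy 2.4.6, pandas 2.3.3, matplotlib 3.10.9).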

Additional observations from a re-analysis of the deposited data

How the results depend on the processing

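Of the 42 member calls in 88 tests, 30 held under every alternative in which the member was tested. In every fit that left out a library 31 held. The replicate block gave 42 calls in all, among them 3 in TAZ-CAMTA1 against EV and 7 in YAP5SA against EV, and changed no call. In 0 of the 11 comparisons did all 6 libraries correlate best with their own number. In CAMTA1 against EVsub 4 of 6 did, and a block for these 2 groups alone was not fitted. Counts moved by over 1.5 times as follows. Without a filter on low counts there were 5 calls in TAZ-CAMTA1 against EV, 5 in CAMTA1 against EVsub and 1 in TAZ-CAMTA1 against YAP-TFE3. With only the 2 groups fitted there were 5 in TAZ-CAMTA1 against EV, 1 in YAP-TFE3 against EV, 2 in TFE3 against EV and 0 in CAMTA1 against EVsub. CAMTA1 against EVsub gave 2 calls with upper-quartile scaling and 2 with DESeq2. It gave 0 with at least 10 counts in every library, a filter under which Fmod, its only called member, was not tested. Leaving out 1 library at a time gave 1 to 4 calls in TAZ-CAMTA1 against EV, 2 to 5 in TAZ4SA against EV, 0 to 3 in YAP-TFE3 against EV and 0 to 5 in CAMTA1 against EVsub. With at least 10 counts in every library, Fmod and Omd were not tested, as their lowest counts were 7 and 2. Their calls were therefore not checked under that filter. Upper-quartile scaling moved the median of all genes to 0.14 in YAP-TFE3 against YAP5SA and 0.12 in TAZ4SA against YAP5SA, and no member call was lost under it. With the longest transcript in place of all exons, Dcn rose to 519 and Bgn to 1065 CPM per kb in EV. No called value changed sign. Uncalled values that changed sign were Bgn in YAP5SA against EV, at -0.013 (DESeq2 size factors), -0.10 (upper quartile), -0.0079 (no filter), -0.091 (10 counts), -0.0051 (replicate block), -0.034 (2 groups), -0.016 (DESeq2) and -0.066 to 0.071 on leaving out a library; Omd in TFE3 against EV, at -0.015 (replicate block) and -0.20 to 0.24; and, over the fits without 1 library, Lum in TAZ-CAMTA1 against EV (-0.29 to 0.099), Bgn in TAZ4SA against EV (-0.0048 to 0.45), Ogn in TFE3 against EV (-0.32 to 0.33), Aspn in CAMTA1 against EVsub (-0.77 to 0.48), Bgn (-0.11 to 0.38) and Omd (-0.084 to 0.64) in EVsub against EV, Bgn (-0.068 to 0.093), Fmod (-0.19 to 0.75) and Ogn (-0.0032 to 0.75) in TAZ-CAMTA1 against YAP-TFE3 and Bgn in TAZ4SA against YAP5SA (-0.011 to 0.44). The causes were not tested. Depth limits Omd, with 2 to 5 counts per YAP5SA library.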
